A study of Mus musculus with 64 samples.

Results

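Transcript levels of macrophages from BALB/c and C57BL/6 mice were compared directly at 4 and 8 h after LPS at 5 ng/ml, without reference to the 0 h arrays. The comparison rests on 8 of the 64 arrays of the study, chosen by strain, dose and time alone. They comprise 2 arrays each of BALB/c cells at 4 h, BALB/c cells at 8 h, C57BL/6 cells at 4 h and C57BL/6 cells at 8 h. The macrophages were grown from femoral bone marrow of male mice aged 7 to 8 weeks, plated at 200000 cells per well with CSF1 at 10000 U/ml, and treated on day 7. Each array held total RNA from 1 well. The remaining 56 arrays cover 0, 1, 2 and 24 h, LPS at 50 and 0.5 ng/ml in C57BL/6 cells, and interferon-beta and interferon-gamma at 10 U/ml in BALB/c cells. The labels give 2 separate wells per time and no separate preparations of cells, so strain and preparation cannot be told apart, and p-values measure only how far such wells differ. The labels name no substrain.

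LPS, a component of the outer membrane of Gram-negative bacteria, is passed by Lbp and Cd14 to the receptor Tlr4. One branch of the signal runs through Myd88 to NF-kB and the genes of inflammatory cytokines and chemokines. The other leads to secreted interferon-beta, which acts back on the macrophages through the interferon receptor and raises a later wave of antiviral genes and interferon-inducible GTPases. BALB/c and C57BL/6 are inbred strains in common use in immunology, and C57BL/6 carries the MHC haplotype that makes no H2-Ea product.

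All values below are log2 of the deposited intensity, and every difference is BALB/c minus C57BL/6 on that scale. Array medians lay between 26.98 and 28.79 on the linear scale, and the correlation between the 2 arrays of a group, across genes, was 0.9953 to 0.997. Adgre1, a surface antigen of mouse macrophages, averaged 12.52 ± 0.27 in BALB/c arrays and 12.49 ± 0.20 in C57BL/6 arrays (SD, n = 4 each). Csf1r, the receptor for CSF1, averaged 11.69 ± 0.14 in BALB/c arrays and 12.12 ± 0.04 in C57BL/6 arrays. The summed linear intensity of 21 macrophage genes was 71350 to 76160 in BALB/c arrays, against 85150 to 86940 in C57BL/6 arrays, without overlap. By the rule given below, 3 of these 21 genes were called lower in BALB/c cells and 0 higher, against 0.781% and 1.3% of all genes. The 3 were the C1q chains described below. At an unadjusted p under 0.05, 8 of the 21 were lower and 3 higher. The sum includes the C1q chains. The median difference of the 21 genes was 0.0013, with 8 of 21 above 0 at 4 h and 11 of 21 at 8 h.

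Summed markers of other cells were low beside the macrophage sum in both strains, but not equal. The sum of 12 granulocyte markers was 387.5 to 499.5 in BALB/c arrays, against 622.8 to 833.5 in C57BL/6 arrays. Ngp, a protein of neutrophil granules, stood at 4.31, 4.24, 4.11 and 3.55 in BALB/c arrays, against 6.89, 6.28, 5.65 and 6.14 in C57BL/6 arrays, a called difference of −2.19. The sum of 9 stromal markers was 471.2 to 789.4 in BALB/c arrays, against 226.1 to 481.2 in C57BL/6 arrays, with Pdgfrb (1.73) and Dcn (1.36) called higher. Both had higher means under LPS than at 0 h. In BALB/c arrays Pdgfrb averaged 5.92 at 0 h, 8.39 at 4 h and 9.17 at 8 h, and Dcn 3.63, 4.56 and 6.07. C57BL/6 arrays at these times had 4.86, 5.94 and 8.14 for Pdgfrb and 3.32, 3.54 and 4.36 for Dcn. The median of the 9 was −0.05, with 3 of 9 above 0 at 4 h and 4 of 9 at 8 h. Sums of 7 B cell markers (124.8 to 146.7 against 154.5 to 183.5) and of 7 mast cell and erythroid markers (106.7 to 131.5 against 133.4 to 238.9) were lower in BALB/c arrays, with Kit called at −1.01. For 10 dendritic cell markers (230.6 to 284.4 against 267.5 to 424.8) and 10 T and NK cell markers (156.7 to 169.7 against 152 to 159.9) limma called no gene, with 5 and 3 at an unadjusted p under 0.05. Their part in the results below was not tested. In bulk RNA, fewer cells of a type and less RNA per cell cannot be told apart.

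Over both times, BALB/c cells held more transcript of Hal, of the IL-12 chain gene Il12a, of the interleukin-1 genes and of 8 chemokines, and less of the C1q chains, Il10, Il12b and several scavenger receptors. The calls of the interleukin-1 genes were lost in the fit of all 64 arrays. Tnf, Il6 and the NF-kB genes were not called. Of 18820 genes, 392 (2.08%) differed between the strains over both times, with time as a block. A gene was called at a limma adjusted p under 0.05 and a log2 difference of at least 1. BALB/c levels were higher for 245 genes (1.3%) and lower for 147 (0.781%). For 312 of the 392 called genes, or 79.6%, all 4 BALB/c arrays lay on 1 side of all 4 C57BL/6 arrays, against 13.8% of all genes. The same 8 arrays gave the calls, so this share is a description and adds no support to them. The median size of a called difference was 1.34. At least 3 log2 separated the strains for 10 higher and 7 lower genes, and at least 2 log2 for 35 higher and 23 lower genes. Of the higher genes, 21 had a C57BL/6 mean under 4.19, the 40th percentile of all values, and 9 of the lower genes had a BALB/c mean under it. The size of the difference is least certain for those.

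**Figure D1:**
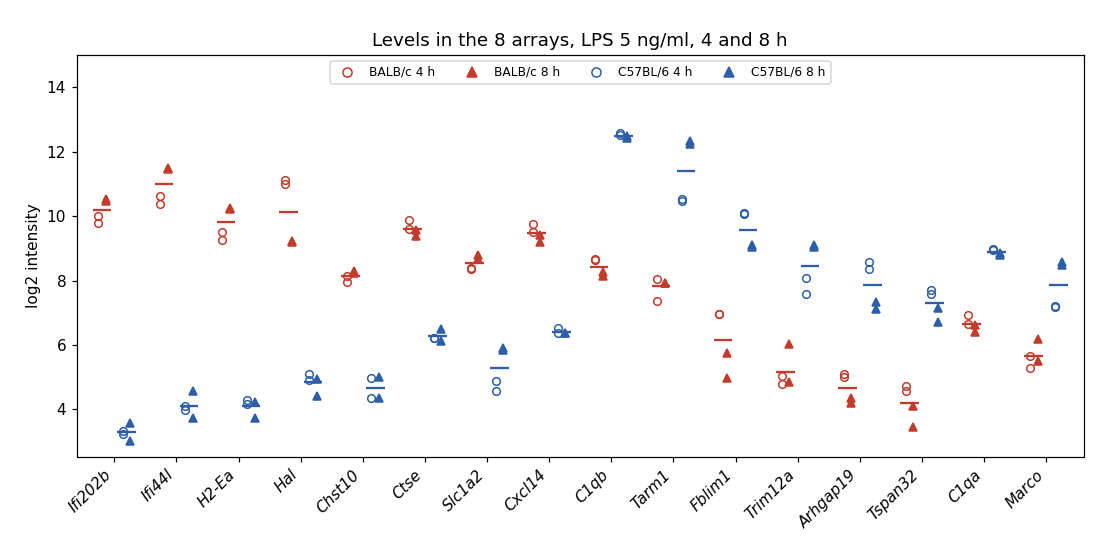
Log2 intensity (vertical axis) of 16 genes with large strain differences in the 8 arrays: BALB/c in red to the left and C57BL/6 in blue to the right of each gene, open circles for 4 h, filled triangles for 8 h, and a bar for the mean of 4 arrays. The 4 BALB/c arrays lie wholly above the C57BL/6 arrays from Ifi202b to Cxcl14 and wholly below them from C1qb to Marco.

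The largest differences belonged to genes bright in BALB/c cells and dim in C57BL/6 cells. Ifi202b, a DNA-binding member of the interferon-inducible p200 family, stood at 9.79 and 10.01 at 4 h and 10.46 and 10.53 at 8 h in BALB/c arrays. In C57BL/6 arrays Ifi202b stood at 3.34 and 3.25 at 4 h and 3.02 and 3.57 at 8 h. The difference was 6.91 ± 0.16 (SE; limma adjusted p = 1.23e-07), with no overlap at either time. Ifi44l, an interferon-induced gene, had 10.37 and 10.62 at 4 h and 11.48 and 11.47 at 8 h in BALB/c arrays. Its C57BL/6 arrays had 3.99 and 4.12 at 4 h and 3.74 and 4.57 at 8 h, a difference of 6.88 ± 0.22 (adjusted p = 9.56e-07).

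H2-Ea, the alpha chain of the MHC class II molecule I-E, is a gene that the haplotype of C57BL/6 is known not to express. BALB/c arrays had 9.25 and 9.52 at 4 h and 10.26 and 10.23 at 8 h, against 4.17 and 4.30 at 4 h and 4.22 and 3.73 at 8 h in C57BL/6 arrays. The difference was 5.71 ± 0.22 (adjusted p = 2.25e-06), and all 8 arrays matched their strain labels at this gene. Nnt, the mitochondrial transhydrogenase that is partly deleted in 1 substrain of C57BL/6, had 9.77, 9.61, 9.18 and 9.20 in BALB/c arrays, against 8.43, 8.38, 8.22 and 8.27 in C57BL/6 arrays. Its difference was 1.12 ± 0.09 (adjusted p = 9.59e-05), and a second, dimmer probe set of Nnt gave 0.02. Of 4 genes listed for textbook variants between these strains, H2-Ea and Nnt were called.

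Hal, the histidine ammonia-lyase that turns histidine into urocanate, followed with 11.11 and 11.00 at 4 h and 9.24 and 9.19 at 8 h in BALB/c arrays. C57BL/6 arrays had 4.93 and 5.10 at 4 h and 4.43 and 4.96 at 8 h. Hal was thus 38.9-fold higher in BALB/c cells, at 5.28 ± 0.28 log2 (adjusted p = 8.25e-06). Other genes of the 15 largest that were higher in BALB/c cells were Chst10 (3.49), a sulfotransferase, Slc1a2 (3.26), a glutamate transporter, and Ctse, the endosomal protease cathepsin E. Ctse had 9.61, 9.88, 9.40 and 9.57 in BALB/c arrays, against 6.22, 6.23, 6.13 and 6.49 in C57BL/6 arrays (3.35 ± 0.12, adjusted p = 1.98e-06). Colec12, a scavenger receptor of the collectin family, differed by 2.63, and Pip5k1b, a phosphoinositide kinase, by 2.65. Atp6v0e2 (3.23), a subunit of the proton pump, Pianp (3.08) and Chic1 (2.59) completed the group with 3 immune genes, Cxcl14, Il12a and Ccl24, described with their families.

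Among genes lower in BALB/c cells, those of complement C1q, the starter of the classical complement pathway and a product of macrophages, stood out by size. C1qb had 8.64 and 8.67 at 4 h and 8.15 and 8.26 at 8 h in BALB/c arrays, against 12.56 and 12.53 at 4 h and 12.42 and 12.50 at 8 h in C57BL/6 arrays. It was 16.8-fold lower in BALB/c cells (−4.07 ± 0.09 log2, adjusted p = 1.23e-07). C1qa averaged 6.66 ± 0.22 in BALB/c arrays and 8.90 ± 0.09 in C57BL/6 arrays (−2.24 ± 0.09, adjusted p = 2.70e-06). C1qc averaged 10.11 ± 0.23 in BALB/c arrays and 12.01 ± 0.07 in C57BL/6 arrays (−1.89 ± 0.09, adjusted p = 4.72e-06). These 3 chains are encoded side by side. In none of them did the arrays of the strains overlap.

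The complement list of 13 measured genes had 4 lower and 0 higher, against 0.781% and 1.3% of all genes. Its median was −0.13 against −0.02 over all genes, with 7 of 13 above 0 at 4 h and 7 of 13 at 8 h. At an unadjusted p under 0.05, 5 were lower and 4 higher over both times. The neighbouring C1q chains were 3 of the 4 called. The fourth was C5ar1, the receptor for the anaphylatoxin C5a, with 10.91, 11.12, 10.21 and 10.28 in BALB/c arrays, against 11.98, 11.96, 11.67 and 11.63 in C57BL/6 arrays (−1.18 ± 0.11, adjusted p = 0.00017). Of 34 Fc, scavenger and lectin receptors, 5 were lower and 1 was higher, against 0.781% and 1.3% of all genes. Marco, a scavenger receptor for bacteria, had 5.28, 5.67, 5.49 and 6.17 in BALB/c arrays, against 7.21, 7.17, 8.49 and 8.57 in C57BL/6 arrays (−2.21 ± 0.22, adjusted p = 0.00031). Cd5l (−2.05), a secreted scavenger protein of macrophages, Stab1 (−1.45), Cd300lf (−1.49) and Fcrls (−1.14) were also lower. The 1 higher member was Clec7a, the beta-glucan receptor dectin-1, which was called at 1.00. Mrc1, the mannose receptor, was lower as well (−1.45 ± 0.09, adjusted p = 2.34e-05).

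Further genes lower in BALB/c cells had no list in common. Tarm1, a receptor of the leukocyte immunoglobulin-like family, had 7.36, 8.04, 7.94 and 7.94 in BALB/c arrays, against 10.52 and 10.48 at 4 h and 12.24 and 12.32 at 8 h in C57BL/6 arrays (−3.57 ± 0.29, adjusted p = 9.25e-05). Only the C57BL/6 values differed by over 1 log2 between the times. Fblim1 (−3.41), an adaptor at sites of cell adhesion, Arhgap19 (−3.17) and Tspan32 (−3.08), a tetraspanin, separated the strains at both times. So did Plekhg1 (−2.91), although a second probe set of that gene gave −1.23. Slc13a3 (−2.56), a dicarboxylate transporter, Dmpk (−2.41), a kinase, Uchl1 (−2.39), a ubiquitin hydrolase, and Sfn (−2.30), a 14-3-3 protein, complete the 15 largest of this direction with C1qb, C1qa and Marco, given above, and Apol7c, Trim12a and Ifi213, which are described below.

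The cytokine list split. Of 25 measured genes, 4 were higher and 2 were lower, against 1.3% and 0.781% of all genes, and 19 were not called. The list median was 0.15 against −0.02 over all genes. The subunits of IL-12 differed in opposite directions. Il12a, the p35 chain, had 8.53 and 8.54 at 4 h and 10.60 and 10.57 at 8 h in BALB/c arrays, against 5.41 and 5.27 at 4 h and 7.98 and 7.65 at 8 h in C57BL/6 arrays. It was 7.9-fold higher in BALB/c cells (2.98 ± 0.11 log2, adjusted p = 2.18e-06). Il12b, the p40 chain shared with IL-23, had 9.11 and 8.87 at 4 h and 9.57 and 9.71 at 8 h in BALB/c arrays, against 10.78 and 10.61 at 4 h and 11.36 and 11.32 at 8 h in C57BL/6 arrays. It was lower by 1.70 at 4 h and by 1.70 at 8 h (mean difference −1.70 ± 0.09, adjusted p = 7.31e-06).

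Il10, the anti-inflammatory cytokine of this response, was also lower. BALB/c arrays had 4.55 and 4.47 at 4 h and 4.19 and 4.54 at 8 h, against 6.57 and 6.30 at 4 h and 6.18 and 6.04 at 8 h in C57BL/6 arrays (−1.83 ± 0.11, adjusted p = 1.33e-05). Il1b had 12.00 and 11.89 at 4 h and 12.84 and 12.80 at 8 h in BALB/c arrays, against 10.07 and 9.84 at 4 h and 11.88 and 11.83 at 8 h in C57BL/6 arrays (1.48 ± 0.19, adjusted p = 0.00121). Il1a, which was named because it completes the count, differed by 1.14 ± 0.10 (adjusted p = 0.000149). Csf2, the growth factor GM-CSF, had 7.39 and 6.57 at 4 h and 7.56 and 7.67 at 8 h in BALB/c arrays, against 5.99 and 5.92 at 4 h and 5.87 and 5.25 at 8 h in C57BL/6 arrays (1.54 ± 0.25, adjusted p = 0.00428). With all 64 arrays in the fit, 2 of the cytokines were called higher in place of 4. Il12a and Csf2 kept the call there, and Il1a and Il1b lost it. The Il1b difference at 8 h alone was 0.97, under the size required for a call.

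**Figure D2:**
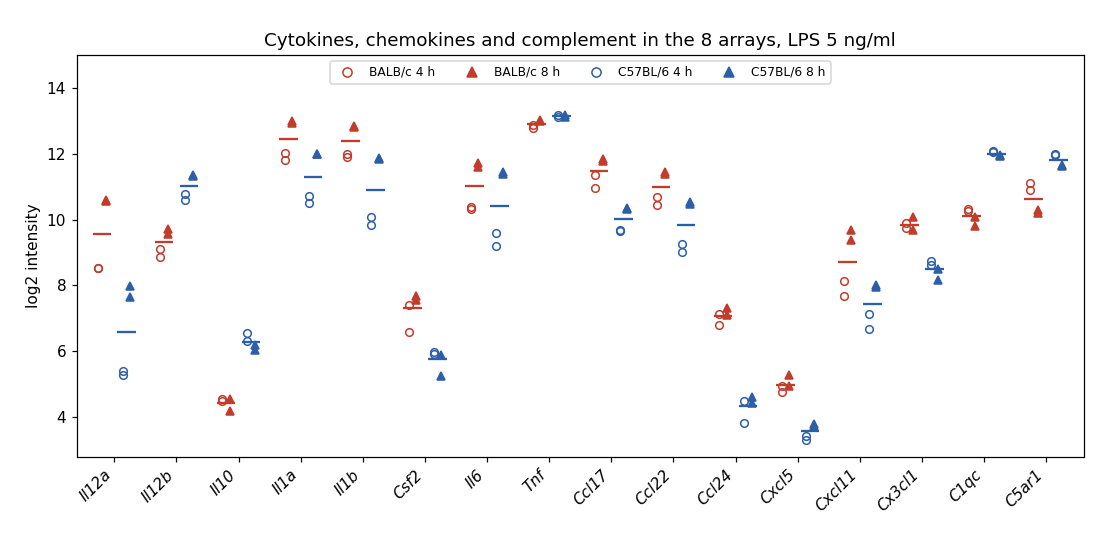
Log2 intensity (vertical axis) of 16 cytokine, chemokine and complement genes in the 8 arrays, BALB/c in red to the left and C57BL/6 in blue to the right of each gene, with bars for the mean of 4 arrays. Il12a lies higher and Il12b and Il10 lie lower in BALB/c arrays, while the Tnf values of the strains lie within 0.24 log2 of each other on average.

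The cytokines most used to score an LPS response were not called. Tnf had 12.86, 12.77, 13.02 and 12.99 in BALB/c arrays, against 13.18, 13.11, 13.12 and 13.18 in C57BL/6 arrays (−0.24 ± 0.08, adjusted p = 0.0666). Il6 had 10.33 and 10.40 at 4 h and 11.71 and 11.60 at 8 h in BALB/c arrays, against 9.58 and 9.21 at 4 h and 11.38 and 11.44 at 8 h in C57BL/6 arrays. Its difference of 0.61 ± 0.15 had an adjusted p of 0.0298 but was under 1 log2. At 4 h alone the Il6 difference was 0.97 (adjusted p = 0.00368), just under that size, and at 8 h it was 0.24 (adjusted p = 0.28). Ifnb1, the gene of interferon-beta, was dim in every array, around the 40th percentile of all values (4.19). BALB/c arrays had 4.41, 4.06, 4.59 and 4.09, against 4.10, 4.05, 3.82 and 3.59 in C57BL/6 arrays (0.40 ± 0.15, adjusted p = 0.115).

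Chemokines, which draw leukocytes to a site of infection, were called in 1 direction. Of 22 measured genes, 8 were higher in BALB/c cells and 0 were lower, against 1.3% and 0.781% of all genes, and the list median was 0.19. The same counts were found with each of the 8 arrays left out. Cxcl14 had 9.74, 9.50, 9.21 and 9.41 in BALB/c arrays, against 6.39, 6.53, 6.36 and 6.38 in C57BL/6 arrays (3.05 ± 0.09, adjusted p = 9.56e-07). Ccl24, an eotaxin, had 7.13, 6.81, 7.30 and 7.10 in BALB/c arrays, against 4.49, 3.81, 4.60 and 4.44 in C57BL/6 arrays (2.75 ± 0.15, adjusted p = 9.32e-06). Within a strain, neither gene's means at 4 and 8 h were over 0.5 log2 apart.

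Ccl17 and Ccl22, the ligands of Ccr4, were both higher. Ccl17 had 11.35 and 10.96 at 4 h and 11.77 and 11.85 at 8 h in BALB/c arrays, against 9.68 and 9.66 at 4 h and 10.33 and 10.34 at 8 h in C57BL/6 arrays (1.48 ± 0.09, adjusted p = 2.14e-05). Ccl22 differed by 1.17 ± 0.12 (adjusted p = 0.000396) and Cx3cl1, which lies beside both in the genome, by 1.34 ± 0.13 (adjusted p = 0.000305). The neutrophil attractants Cxcl5 (1.42) and Cxcl1 (1.14) and the T cell attractant Cxcl11 (1.28) complete the count. Ccl2, Ccl3, Ccl5 and Cxcl2 differed by −0.08, −0.01, 0.00 and 0.12, and Cxcl10 by −0.44. Ccl22, Cx3cl1, Cxcl1, Cxcl11 and these 5 uncalled chemokines were chosen after their values were seen.

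Of 9 measured genes in the chemokine receptor list, 1 was higher and 2 were lower, against 1.3% and 0.781% of all genes. Cxcr4, the receptor of Cxcl12, had 8.30, 8.22, 7.75 and 7.80 in BALB/c arrays, against 7.25, 7.14, 5.64 and 5.98 in C57BL/6 arrays (1.52 ± 0.18, adjusted p = 0.000735). The lower ones were Ccr1 (−1.09 ± 0.23, adjusted p = 0.0147) and C5ar1, given above. C5ar1 binds a complement fragment and not a chemokine, and was counted in the complement list too. Ccr1 was not called at 4 h or at 8 h alone.

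Antiviral genes and interferon-inducible GTPases were called higher in BALB/c cells at 4 h, and at 8 h 1 GTPase was. Over all genes at 4 h, 511 genes (2.72%) were called, 352 higher (1.87%) and 159 lower (0.845%) in BALB/c cells. At 8 h, 428 genes (2.27%) were called, 231 higher (1.23%) and 197 lower (1.05%). Both times shared 241 genes in the same direction, 47.2% of those at 4 h and 56.3% of those at 8 h, and 0 genes were called in opposite directions. All 27 measured antiviral genes were on the higher side in BALB/c cells at 4 h, against 8594 of 18820 genes in all, and 10 were called. Their median difference at 4 h was 0.82, against −0.03 over all genes. At 8 h the list median was 0.04 with 16 of 27 above 0, and 0 were called by limma, while 5 were higher and 1 was lower at an unadjusted p under 0.05. The 10 calls at 4 h became 5 without C57BL/6 4 h replicate 2, and 8 to 11 without any other single array.

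Zbp1, a sensor of nucleic acids, showed the largest antiviral difference. At 4 h BALB/c arrays had 9.81 and 9.79, against 7.92 and 7.42 in C57BL/6 arrays (2.13, adjusted p = 0.000286). At 8 h BALB/c arrays had 11.53 and 11.57, against 10.67 and 10.74 in C57BL/6 arrays (0.85, adjusted p = 0.014), under the size required for a call. Herc6, a ligase that attaches Isg15 to proteins in mice, had 10.17 and 10.42 in BALB/c arrays, against 8.73 and 8.57 in C57BL/6 arrays at 4 h. At 8 h it had 11.27 and 11.29 in BALB/c arrays, against 11.12 and 11.14 in C57BL/6 arrays. Irf7, Isg20, Oas2, Oasl1, Usp18, Ifih1, Ifit2 and Ifit3 were the other calls at 4 h, between 1.01 and 1.24. Isg15 and Rsad2 (0.71 and 0.47 at 4 h) were not called. Herc6 and the antiviral genes other than Zbp1 were chosen after their values were seen.

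The interferon-inducible GTPases, which attack the vacuoles of intracellular pathogens, gave a similar pair of values. Of 9 measured, 6 were called higher at 4 h and 1 at 8 h, against 1.87% and 1.23% of all genes. The list medians were 1.19 and 0.32. Iigp1 had 7.53 and 7.85 at 4 h and 9.37 and 9.33 at 8 h in BALB/c arrays, against 5.47 and 5.24 at 4 h and 9.27 and 9.36 at 8 h in C57BL/6 arrays. The difference was 2.34 at 4 h (adjusted p = 0.000126) and 0.04 at 8 h (adjusted p = 0.891). Gbp4 was called at both times: BALB/c arrays had 7.47 and 7.80 at 4 h and 9.86 and 9.88 at 8 h, against 5.26 and 4.98 at 4 h and 8.33 and 8.39 at 8 h in C57BL/6 arrays (2.51 and 1.51). Gbp9 (2.20 and 0.85 at 4 and 8 h) and Gbp7 (1.85 and 0.60) were called at 4 h and over the mean of both times, and Gbp3 (1.19) and Gbp5 (1.06), chosen after their values were seen, at 4 h.

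**Figure D3:**
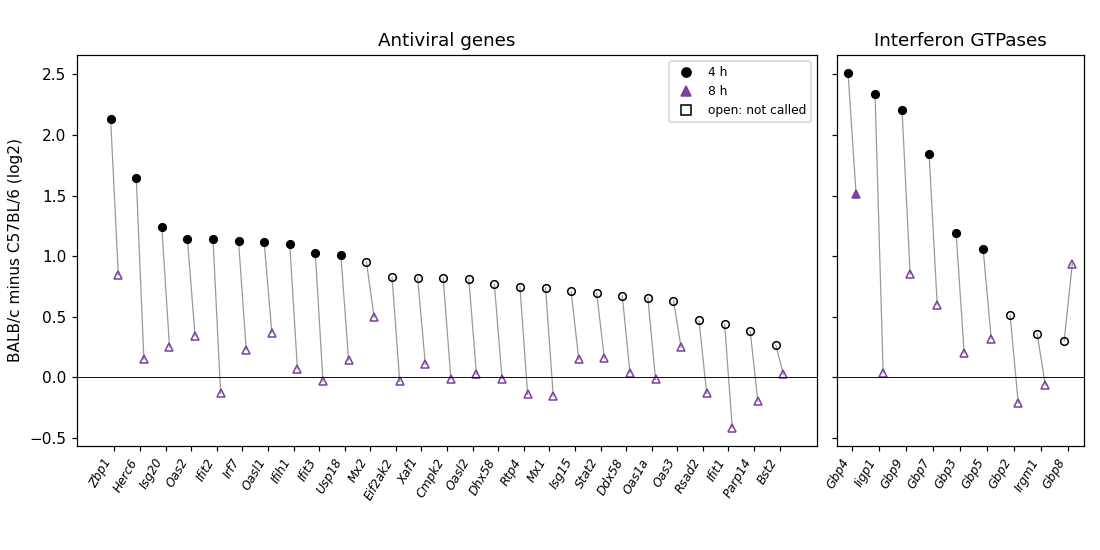
Strain difference, BALB/c minus C57BL/6 in log2 (vertical axis), of the 27 antiviral genes and 9 interferon GTPases at 4 h (circles) and 8 h (triangles), with a line joining the values of a gene and filled symbols for called differences. Every gene lies above 0 at 4 h, and the 8 h values are lower for all but Gbp8, with list medians of 0.04 and 0.32.

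Nos2, the inducible nitric oxide synthase, followed the same course. At 4 h it had 11.12 and 10.88 in BALB/c arrays, against 9.17 and 8.79 in C57BL/6 arrays (2.02, adjusted p = 0.00026). At 8 h it had 12.22 and 12.24 in BALB/c arrays, against 12.16 and 12.20 in C57BL/6 arrays (0.06, adjusted p = 0.839). The arrays of the strains thus lay apart at 4 h and within 0.09 log2 of each other at 8 h. Other genes with a difference over 1 at 4 h that did not pass at 8 h were Tnfsf10 (1.69 and −0.19), the death ligand TRAIL, Tlr3 (1.42 and 0.22), the receptor for double-stranded RNA, and Cfb (1.38 and 0.09), complement factor B. These 3 were chosen after their values were seen.

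The test of the change itself, 8 h minus 4 h, called 205 genes (1.09%): the strain difference was lower at 8 h for 140 (0.744%) and higher for 65 (0.345%). Of the 140, 77 had been called higher in BALB/c cells at 4 h, 23 were called lower at 8 h, and 40 were neither. Of the 65, 10 had been called lower at 4 h and 22 were called higher at 8 h. The count depended on every array, since each group has 2. It was 44 and 2 without BALB/c 4 h replicate 1 and 2, 78 and 119 without BALB/c 8 h replicate 1 and 2, 85 and 0 without C57BL/6 4 h replicate 1 and 2, and 31 and 4 without C57BL/6 8 h replicate 1 and 2. With all 64 arrays in the fit it was 206, of which 169 were among the 205, and 148 to 223 with 1 of the 8 arrays left out of that fit. The direction of the 26 named changes was the same in all of these fits.

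**Figure D4:**
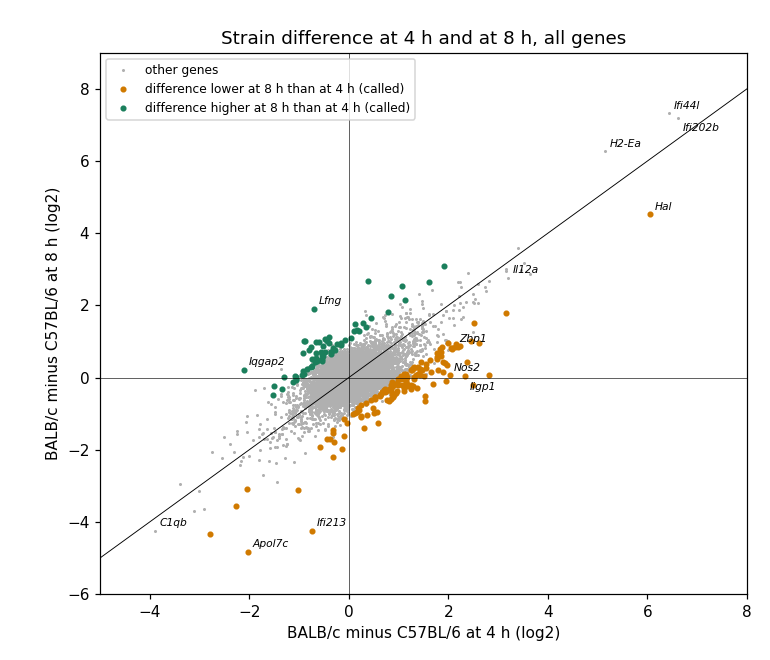
Strain difference, BALB/c minus C57BL/6 in log2, at 4 h (horizontal axis) and at 8 h (vertical axis) for 18820 genes, with the diagonal of equal difference. The 140 genes whose difference was lower at 8 h than at 4 h are orange, the 65 whose difference was higher are green, and genes with large differences at both times, such as Ifi202b, lie near the diagonal.

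The strain differences of 4 interferon GTPases and 5 antiviral genes were called lower at 8 h than at 4 h: Iigp1 (−2.30), Gbp9 (−1.35), Gbp7 (−1.25), Gbp4 (−1.0), Herc6 (−1.50), Zbp1 (−1.28), Ifit2 (−1.27), Ifit3 (−1.06) and Ifih1 (−1.03). In the fit of all 64 arrays 2 GTPases and 2 antiviral genes were called. The adjusted p of Iigp1 was 0.0317 there, and the call was lost with any 1 of the 8 arrays left out of that fit (adjusted p up to 0.132). That of Gbp9 was 0.00464, that of Gbp7 was 0.0944 and that of Zbp1 was 0.199. For Nos2, at −1.97, it was 0.479 there and 0.0111 in the fit of the 8 arrays. The promoters of Ifit3 and Gbp7 are printed because both genes lost most of their difference between the times and their windows match the motif given next. They are RefSeq's, in build GRCm38.p6, on the + strand, 250 bases before to 50 after the start, with matches on either strand to GAAA, any 2 bases and GAAA again in capitals.
Ifit3, chr19:34583279-34583578: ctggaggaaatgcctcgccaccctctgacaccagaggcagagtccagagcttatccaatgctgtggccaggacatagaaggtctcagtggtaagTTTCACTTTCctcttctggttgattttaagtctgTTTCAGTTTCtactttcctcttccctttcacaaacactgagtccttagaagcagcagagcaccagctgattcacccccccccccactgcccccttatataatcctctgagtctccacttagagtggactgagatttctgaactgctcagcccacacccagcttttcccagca
Gbp7, chr3:142530086-142530385: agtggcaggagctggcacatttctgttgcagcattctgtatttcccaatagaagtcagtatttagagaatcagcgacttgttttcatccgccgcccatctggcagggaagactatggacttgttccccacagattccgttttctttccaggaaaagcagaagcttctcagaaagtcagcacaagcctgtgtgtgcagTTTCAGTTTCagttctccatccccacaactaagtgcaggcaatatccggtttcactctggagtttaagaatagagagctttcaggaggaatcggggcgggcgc
The matches in Ifit3 begin 156 and 122 bases before the start and that in Gbp7 53 bases before it. Of the 9 genes above, 5 had a window that could be read. They had 6 windows, of which 3 held the motif, against 3.44% of 32851 windows in the table. A second motif was TTC, any 3 bases and GAA. Of the 6 windows, that of Gbp7 and 1 of the 2 of Ifit2 held it, against 8.3% of windows in the table. Whether either motif bears on the change was not tested. The reference sequence is that of 1 strain, so it does not show whether the strains differ there.

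The largest changes in the other direction were of genes without a shared list. Lfng, an enzyme that modifies Notch, had 8.04 and 7.54 at 4 h and 9.80 and 9.85 at 8 h in BALB/c arrays, against 8.51 and 8.48 at 4 h and 7.97 and 7.87 at 8 h in C57BL/6 arrays. Its difference changed by 2.61 ± 0.22 (SE; adjusted p = 0.0093, and 4.40e-10 in the fit of all 64 arrays). Iqgap2, a cytoskeletal scaffold, had 7.19 and 7.40 at 4 h and 9.42 and 9.55 at 8 h in BALB/c arrays, against 9.40 and 9.40 at 4 h and 9.30 and 9.26 at 8 h in C57BL/6 arrays (change 2.31, adjusted p = 0.00785). Spry1 (1.92), an inhibitor of growth factor signals, Lpin1 (1.88), a phosphatidate phosphatase, Snx24 (1.64) and Mrgpra9 (1.61) followed.

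In the negative direction, Ifi213, Apol7c, Tarm1 and Plekhg1 had C57BL/6 means over 1 log2 higher at 8 h than at 4 h, while their BALB/c means did not rise by that much. Ifi213, a p200 family gene, had 5.21 and 5.18 at 4 h and 4.24 and 4.77 at 8 h in BALB/c arrays, against 5.94 and 5.93 at 4 h and 8.63 and 8.86 at 8 h in C57BL/6 arrays (change −3.50, adjusted p = 0.00785). Apol7c, of the apolipoprotein L family, had 3.11, 2.41, 2.73 and 2.52 in BALB/c arrays, near the lowest values, against 5.01 and 4.56 at 4 h and 7.40 and 7.51 at 8 h in C57BL/6 arrays (change −2.81, adjusted p = 0.0161). The change was −1.54 for Tarm1 and −1.28 for Plekhg1. Phf11c (−2.19), Mtfr2 (−2.10) and Klf8 (−2.06), a Krüppel-like factor, were also among the 6 largest changes of this direction, with Iigp1 given above.

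Of 15 measured Trim and Schlafen genes, 3 were higher and 2 were lower over both times, against 1.3% and 0.781% of all genes. Neighbouring Trim genes differed in opposite directions. Trim12a had 4.78 and 5.03 at 4 h and 6.05 and 4.84 at 8 h in BALB/c arrays, against 7.57 and 8.08 at 4 h and 9.04 and 9.11 at 8 h in C57BL/6 arrays (−3.27 ± 0.26, adjusted p = 8.68e-05). Trim34a, beside it, had 7.48, 7.33, 7.80 and 7.67 in BALB/c arrays, against 5.52, 5.44, 6.55 and 6.83 in C57BL/6 arrays (1.49 ± 0.17, adjusted p = 0.00071). Trim12c (1.28) was higher, with 0.38 for its other probe set, and Trim30b (−1.26) was lower. These genes are paralogs of 1 family, so their probe sets may share signal, and the values are uncertain for each gene on its own. Slfn1, of the Schlafen family, differed by 1.37.

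Of 10 measured MHC class II genes, H2-Ea was higher and H2-Ab1 lower, against 1.3% and 0.781% of all genes. H2-Ab1 had 8.44, 9.09, 9.99 and 9.99 in BALB/c arrays, against 10.04, 9.88, 10.89 and 11.04 in C57BL/6 arrays (−1.08 ± 0.14, adjusted p = 0.0012). Its BALB/c arrays at 8 h lay within the C57BL/6 arrays at 4 h. Of 21 MHC class I genes, 3 were higher and 0 lower, against 1.3% and 0.781% of all genes. The 3 were H2-Q6 (1.49), H2-T24 (1.36) and H2-Q8 (1.06). MHC genes are among the most variable between inbred strains, and members of the class I family share sequence. Of 15 cytosolic sensors and inflammasome genes, 2 were lower and 0 higher, against 0.781% and 1.3% of all genes. Nlrp1a had 3.54, 4.01, 3.64 and 3.48 in BALB/c arrays, against 5.94, 5.71, 4.95 and 5.18 in C57BL/6 arrays (−1.78 ± 0.15, adjusted p = 0.00012). Mefv, the gene of pyrin, had 4.57, 4.38, 4.93 and 4.96 in BALB/c arrays, against 6.18, 6.05, 6.60 and 6.68 in C57BL/6 arrays (−1.67 ± 0.08, adjusted p = 5.07e-06).

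The signal chain itself showed few calls over both times. Of 22 Toll-like receptor pathway genes, 1 was lower and 0 higher, against 0.781% and 1.3% of all genes. At 4 h, 2 were called higher and 1 lower. At an unadjusted p under 0.05, 8 were higher and 3 lower over both times, and 11 higher and 2 lower at 4 h. The gene called over both times was Lbp, the LPS-binding protein. It had 4.42, 4.44, 4.50 and 4.26 in BALB/c arrays, against 5.42, 5.71, 5.67 and 5.38 in C57BL/6 arrays (−1.14 ± 0.10, adjusted p = 0.000171). Tlr4 had 7.84, 8.10, 8.09 and 8.22 in BALB/c arrays, against 7.55, 7.33, 7.86 and 7.87 in C57BL/6 arrays (0.41 ± 0.10, adjusted p = 0.025). Cd14 averaged 12.21 ± 0.10 in BALB/c arrays and 11.77 ± 0.24 in C57BL/6 arrays (0.44, adjusted p = 0.00729), and Myd88 averaged 11.90 ± 0.17 and 11.80 ± 0.38 (0.09, adjusted p = 0.537). Of 19 NF-kB genes 0 were called by limma over both times, at 4 h, at 8 h or for the change, and the list median was 0.06. At an unadjusted p under 0.05, 4 were higher and 4 lower over both times. Of 26 cell cycle genes 0 were called over both times and 1, Mcm6 (−1.08), at 8 h. Their median was −0.41, with 4 of 26 above 0 at 4 h and 3 of 26 at 8 h, against 9384 of 18820 genes at 8 h. At an unadjusted p under 0.05, 19 of the 26 were lower and 0 were higher over both times.

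Several enzymes that act on amino acids, purines and amines were higher in BALB/c cells. Of 18 measured prostaglandin, purine and amine enzymes 4 were called higher and 0 lower, against 1.3% and 0.781% of all genes. The list median was −0.12 against −0.02 over all genes, and at an unadjusted p under 0.05 there were 6 higher and 7 lower. Beside Hal they were Ada, adenosine deaminase, Kynu, kynureninase, and Hdc, the histidine decarboxylase that makes histamine. Ada had 8.61, 8.57, 7.91 and 7.86 in BALB/c arrays, against 6.86, 6.88, 6.42 and 6.48 in C57BL/6 arrays (1.58 ± 0.08, adjusted p = 8.05e-06). Kynu had 6.23 and 6.22 at 4 h and 8.38 and 8.42 at 8 h in BALB/c arrays, against 4.62 and 4.73 at 4 h and 7.04 and 7.19 at 8 h in C57BL/6 arrays (1.42 ± 0.09, adjusted p = 1.61e-05). Hdc differed by 1.26 ± 0.17 (adjusted p = 0.00151). Slc7a2, an arginine transporter, differed by 1.01. Arg1 was dim in both strains, at 3.97 ± 0.21 in BALB/c arrays and 4.23 ± 0.13 in C57BL/6 arrays.

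Adhesion and co-stimulatory genes gave 3 of 25 higher and 0 lower over both times, against 1.3% and 0.781% of all genes. The list median was 0.11 against −0.02 over all genes, and at an unadjusted p under 0.05 there were 8 higher and 7 lower. Slamf1, a self-ligand receptor that also binds bacteria, had 6.16 and 6.33 at 4 h and 8.42 and 8.50 at 8 h in BALB/c arrays, against 4.52 and 4.61 at 4 h and 5.91 and 6.14 at 8 h in C57BL/6 arrays (2.06 ± 0.15, adjusted p = 5.43e-05). Itgax, the CD11c integrin, had 9.72, 9.62, 9.48 and 9.63 in BALB/c arrays, against 8.25, 8.31, 8.10 and 8.11 in C57BL/6 arrays (1.42 ± 0.07, adjusted p = 7.80e-06). Vcam1, an adhesion molecule, differed by 2.06 at 4 h and 0.83 at 8 h. The protease list had 2 of 22 higher and 0 lower, against the same shares of all genes. The 2 were Ctse and Adamts4 (2.04 ± 0.11, adjusted p = 9.07e-06).

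Metabolic lists held few calls in both directions. Over all genes 1.3% were called higher and 0.781% lower over both times. Of 21 sterol and lipid genes 2 were higher: Nr1h3, the oxysterol receptor LXR-alpha (1.07 ± 0.09, adjusted p = 8.71e-05), and Fabp5, a fatty acid carrier (1.01). Of 19 glycolysis and hypoxia genes 1 was lower, Pdk1 (−1.12). Of 21 antioxidant and glutathione genes the glutathione transferases Gstm2 (−1.23) and Gsta3 (−1.06) were lower and Gstt1 (1.20) was higher. Of 17 alternative activation genes 2 were higher, Ccl24 and Ccl17, and 1 was lower, Mrc1, and of 13 classical activation genes 1 was higher, Slc7a2, and 1 was lower, Il12b. Neither list had its called genes in 1 direction.

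Levels at times outside the comparison are given as a description. Of the 245 genes higher in BALB/c cells, 232 had a difference of the same sign at 1 h, 229 at 2 h and 225 at 24 h, and of the 147 lower genes 137, 143 and 140. Over all genes BALB/c levels were the higher at 1, 2 and 24 h for 50.9%, 58% and 51.4%. Differences of at least 1 log2 were found for 130, 134 and 104 of the higher genes and for 80, 81 and 81 of the lower genes at 1, 2 and 24 h. At 0 h the sign was the same for 180 higher and 144 lower genes, 106 and 80 of the genes differed by at least 1 log2, and 15 of the higher genes differed by at least 1 log2 the other way. The C57BL/6 arrays at 0 h were high in Nos2 and Il6. Nos2 had 3.54 and 3.78 in BALB/c arrays at 0 h, against 10.45 and 10.63 in C57BL/6 arrays at 0 h and 4.41 and 4.56 in C57BL/6 arrays at 1 h of LPS. Il6 averaged 3.75 in BALB/c arrays at 0 h, against 7.76 in C57BL/6 arrays at 0 h and 4.34 in C57BL/6 arrays at 1 h of LPS. Other genes were also higher in C57BL/6 arrays at 0 h than at 1 h of LPS at 5 ng/ml. Means at 0 and 1 h were 9.49 and 7.09 for Gbp7, 6.64 and 3.80 for Iigp1, and 8.32 and 6.33 for Zbp1. Those of Il12b were 7.27 and 5.26, and those of Ccl17 were 6.90 and 4.72. Il10 (5.07 and 6.04) and Csf2 (4.63 and 5.12) were lower at 0 h. The part of such genes in the 0 h counts was not tested. At 24 h, C57BL/6 replicate 2 at 5 ng/ml stood apart from its partner, with Hal at 9.21 against 4.74 and Ifi44l at 8.32 against 3.89. Without it, 225 higher genes kept their sign and 114 differed by at least 1 log2. None of the 8 arrays compared showed such values: their C57BL/6 arrays had at most 5.10 for Hal and 4.57 for Ifi44l.

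C57BL/6 cells also received LPS at 0.5 and 50 ng/ml. Differences from those arrays would share the BALB/c arrays that chose the genes, so only levels are given. Il10 at 4 and 8 h was 4.19 to 4.55 in BALB/c arrays at 5 ng/ml, and in C57BL/6 arrays it was 4.08 to 5.12 at 0.5 ng/ml, 6.04 to 6.57 at 5 ng/ml and 6.73 to 7.87 at 50 ng/ml. Il12a was 8.53 to 10.60 in BALB/c arrays, while C57BL/6 arrays had 4.25 to 5.18 at 0.5 ng/ml, 5.27 to 7.98 at 5 ng/ml and 5.26 to 6.88 at 50 ng/ml. C1qb was 12.42 to 12.59 at these times at every dose in C57BL/6 arrays.

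**Figure D5:**
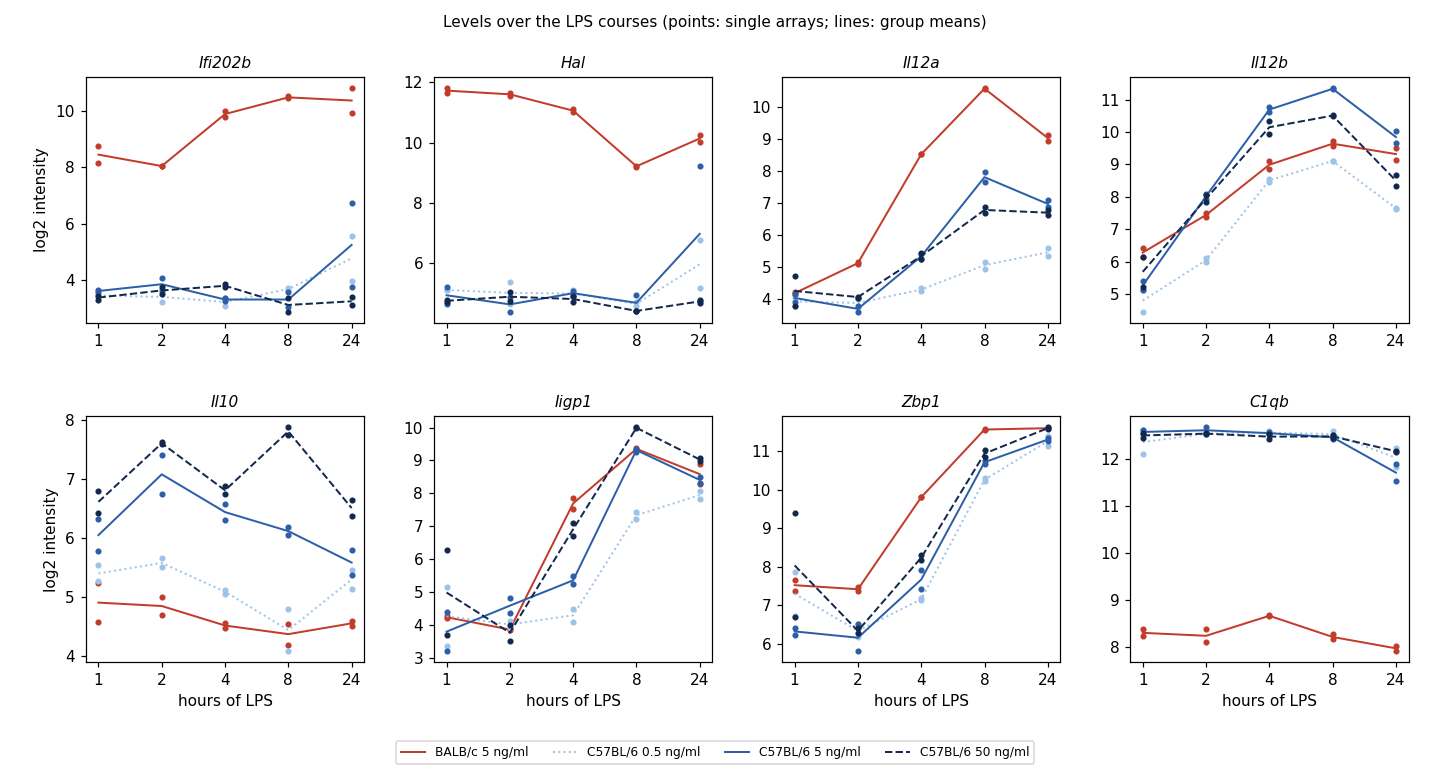
Log2 intensity (vertical axes) of 8 genes over 1 to 24 h of LPS (horizontal axes) in BALB/c cells at 5 ng/ml (red) and in C57BL/6 cells at 0.5, 5 and 50 ng/ml (light, mid and dark blue), with points for single arrays and lines for group means. Iigp1 and Zbp1 differ between the strains at 4 h more than at 8 h, whereas Ifi202b, Hal and C1qb differ throughout, apart from C57BL/6 arrays at 24 h that stood apart.

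Called genes often lay beside each other in the RefSeq gene order. Of the 392, 56 (14.3%) had another called gene as a direct neighbour among the genes measured, 44 of them with the same direction, against 3.82% of uncalled genes. Among the runs were C1qb, C1qc and C1qa, all lower, Ccl22, Cx3cl1 and Ccl17, all higher, Il1a and Il1b with 2 noncoding neighbours, all higher, Fcrls, Cd5l and Fcrl1, all lower, C5ar2 and C5ar1, both lower, and Gbp9 and Gbp4, both higher. Neighbours that differed in opposite directions included Trim34a, Trim12a, Trim12c and Trim30b, and Ifi214 (higher) with Ifi213 (lower). Overlapping transcripts and paralogs within a run may share signal.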

How the data were processed

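The authors deposited 1 linear intensity per probe set and Affymetrix array, summarised and normalised in steps that are not given in the sources used here. The submitters' processing notes name Affymetrix Expression Console 1.1. Over all 64 arrays they ran from 2.493 to 17782, and medians of the 8 arrays from 26.98 to 28.79. Precision is limited by the number of arrays.

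These intensities entered as log2, without further normalisation or filter. Of 35556 probe sets, 21218 had 1 gene symbol, 1881 had several and 12457 had none. Only the first kind was tested, with the brightest probe set for the 1386 genes that had several, which left 18820 genes. By identifier 21185 probe sets matched RefSeq genes, and 0 symbols changed. The array's genome build is not given, so the only coordinates printed are those of RefSeq promoters.

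Strain was tested in R 4.3.3 with limma 3.58.1 (data.table, version 1.17.8) on the 8 arrays with time as a block and 5 residual degrees of freedom. Differences at 4 h, at 8 h and their change came from a fit of the 4 group means with 4 residual degrees of freedom. Adjustment was by Benjamini-Hochberg across the 18820 genes. Same-numbered arrays of different groups did not deviate together (correlations from −0.056 to 0.038 over 6 pairs of groups), so replicate numbers were not used. No 2 arrays were identical. Figures were drawn with matplotlib 3.10.9.

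The named genes were, of called genes whose strains did not overlap and without gene-model names, the 15 largest in each direction, up to 4 called members per list, the 6 largest changes in each direction and 16 fixed genes. The comparison, the 33 gene lists and this rule were chosen with earlier results of these data known. On simulated data 49 of 50 genes (98%) changed by 1.5 log2 were recovered for the mean of both times and 37 of 50 (74%) for the change, with 0 false calls in each.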

Additional observations from a re-analysis of the deposited data

Results flagged for a closer look

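The strain difference changed between 4 and 8 h for 205 genes by limma's test of the change, as given above with its dependence on single arrays. Of the 26 named genes among them, 18 were also called in the fit of all 64 arrays, and 10 of these with any 1 of the 8 arrays left out of it. The values below are the change of the BALB/c minus C57BL/6 difference, 8 h minus 4 h, in log2.

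A difference that moved upward was found for Lfng (2.61), Iqgap2 (2.31), Spry1 (1.92), Lpin1 (1.88), Snx24 (1.64), Mrgpra9 (1.61) and Kit (1.03). For Lfng, Iqgap2, Spry1, Lpin1 and Snx24 the call was kept in every fit of the 64 arrays without 1 of the 8.

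A difference that moved downward was found for Ifi213 (−3.50), Apol7c (−2.81), Iigp1 (−2.30), Phf11c (−2.19), Mtfr2 (−2.10), Klf8 (−2.06), Nos2 (−1.97), Tarm1 (−1.54), Hal (−1.52), Pdgfrb (−1.42), Gbp9 (−1.35), Zbp1 (−1.28), Plekhg1 (−1.28), Gbp7 (−1.25), Vcam1 (−1.23), H2-T24 (−1.04), Slc13a3 (−1.03), Il1b (−1.02) and Gbp4 (−1.0). The call of Iigp1 in the fit of all 64 arrays was lost with any 1 of the 8 left out (adjusted p up to 0.132). The call was lost in the fit of all 64 arrays for Hal (adjusted p = 0.38), Zbp1 (0.199), Gbp4 (0.288), Gbp7 (0.0944), H2-T24 (0.0782), Vcam1 (0.0815), Il1b (0.796) and Nos2 (0.479).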

How the results depend on the processing

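Counts of called genes over both times, at 4 h, at 8 h and for the change were 392, 511, 428 and 205. With no minimum difference they were 2977, 2854, 2442 and 504. Leaving out 1 array at a time gave 359 to 405, 453 to 527, 405 to 456 and 0 to 223, the last over fits of the remaining 7 arrays (0 to 119) and fits of the remaining 63 (148 to 223). At least 345, 433 and 368 of the called genes were shared with the first 3 counts. All other alternatives stayed within 1.5 times. They were centring, quantile normalisation, a filter on dim genes, the mean of probe sets and every probe set tested. Also tried were trend and robust settings, all 64 arrays, and a split of the arrays into 2 groups as a covariate. That split was read from the intensities of probe sets without a gene, and no label names it as a batch. With a replicate block the counts were 387, 511, 425 and 142, although the numbers share nothing else that is known. None of the 8 arrays lay in the smaller group of the split, so leaving that group out gives no value. Of 78 named genes called over both times, 0 changed direction, and 69 kept the call under every alternative, and Ccr1, Fabp5, H2-Ab1, Ifi213, Il1b, Kit, Nnt, Slc7a2 and Trim12c lost it under at least 1. Of the 19 named genes not called over both times, Spry1, Lpin1, Snx24 and Mrgpra9 changed the sign of their mean difference, which lay between −0.33 and 0.41 in all fits. The cause of these losses was not tested. The fit of 63 arrays, the mean taken from the fit of group means and the values without 1 or 2 arrays at 24 h were added after seeing the data. With 2 wells per group, strain and preparation cannot be told apart, and whether the probes bind transcripts of both strains equally was not tested.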

Other observations

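For 49 of the 245 genes higher and 34 of the 147 genes lower in BALB/c cells, every one of the 32 BALB/c arrays of the series lay beyond every one of the 32 C57BL/6 arrays, across LPS doses, interferons and times. Among all genes 61 and 39 did so. Replicate 2 at 5 ng/ml and replicate 1 at 0.5 ng/ml of the C57BL/6 arrays at 24 h stood apart from their partners and are included. Without them the counts were 53 and 35 of the called genes and 67 and 41 of all genes. Hal was 9.19 or more in every BALB/c array, against at most 9.21 in C57BL/6 arrays, that value being replicate 2 at 5 ng/ml and 24 h. Ctse was 8.86 to 10.88 in all BALB/c arrays, against 5.27 to 7.11 in all C57BL/6 arrays. Cxcl14 was 9.21 to 10.41 in BALB/c arrays, against 5.68 to 7.53 in C57BL/6 arrays. Trim12a was 3.97 to 6.05 in BALB/c arrays, against 6.75 to 9.81 in C57BL/6 arrays. These counts include the 8 arrays that chose the genes.

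Levels of several of these genes without LPS are given for BALB/c cells under interferon-beta or interferon-gamma for 4 and 8 h. C1qb was 8.25 to 9.57 in those arrays and Hal was 10.79 to 11.45. Il12a was 3.66 to 4.43 and Ccl17 4.57 to 5.44 there, against 8.53 to 10.60 and 10.96 to 11.85 in BALB/c arrays with LPS at the same times. Gbp4 was 9.89 to 11.37 with interferons. C1qb was not constant in BALB/c cells. It averaged 8.20 in untreated BALB/c arrays, 9.56 after 8 h and 11.39 after 24 h of interferon-gamma, and 8.64 after 24 h of interferon-beta. The lowest C57BL/6 array of the series had 11.52.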
